A study of Labrus bergylta with 24 samples.

Results

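The transcripts described here are those that followed the second principal component of the hindgut transcriptome of ballan wrasse, *Labrus bergylta*. A principal component is a weighted sum of transcript levels, and each fish receives a score on it. Components are ordered by how much of the spread between fish they take up, with no use of the diets. The component was computed over 17056 transcripts with a mean normalized count of at least 10, on the log2(normalized count + 1) scale, with each transcript centred. The 100 transcripts with the highest and the 100 with the lowest Pearson correlation with the score were taken, 200 of the 20751 transcripts in the table. They are called the high end and the low end. The sign of the score is arbitrary and was set so that replicate 1 of the soyasaponin diet was positive. The correlations with the score chose the members and are therefore given as a description only.

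The hindgut is the last segment of the intestine, where the lining takes up luminal material and meets the gut bacteria. Soyasaponins are amphiphilic glycosides of soybean that interact with membranes, and in Atlantic salmon they have been associated with inflammation of the distal intestine under soybean meal diets. Prebiotics are feed ingredients meant to be used by gut bacteria rather than digested by the host.

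RNA sequencing covered 24 fish, 6 on each of 4 diets, and each library was 1 fish. All fish first received the reference diet for 4 weeks, and the test diets were then fed for 5 weeks. The control group stayed on the reference diet, the soyasaponin group received it with 0.7% soyasaponin, the prebiotic group with 0.4% of a commercial prebiotic, and the combined group with both additions. There were 2 tanks per diet, but which tank a fish came from is not labelled. Diet and tank therefore cannot be told apart, and in the tests the fish counted as independent samples. Replicate numbers were given in record order and do not pair fish across diets.

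The libraries held 8.42 M to 12.5 M assigned reads, recovered from the deposited normalized counts. The samples are bulk tissue, in which fewer cells of a type and less RNA per cell cannot be told apart. No transcript identifier could be paired with a gene symbol, so neither the labelled tissue nor any cell type could be checked against markers, and no function is given to any member. Prebiotic replicates 4 and 5 were the libraries that an earlier analysis of these data found least like the others, and they had the highest scores on the first component. Counts are therefore also given without them where they moved.

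The first component took up 31.5% of the variance between fish and the second 9.76%. Of the squared scores, 39.7% lay between diets for the second component, against 13.2% for the first, 33.1% for the third and 26.4% for the fourth. With 6 fish per diet, part of such a share arises without any diet difference, and that part was not computed. The score was higher in most fish that had received soyasaponin, with or without the prebiotic, but every pair of diets overlapped. The score is in log2 units summed over the weighted transcripts. In control fish it ranged from -48.3 to 18.8 with a median of -10.6 (mean -12.4 ± 28.5 SD, n = 6). In prebiotic fish it ranged from -47.4 to 14.0 with a median of -29.9 (mean -23.4 ± 25.1 SD, n = 6). These 2 groups covered nearly the same span.

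In soyasaponin fish the score ranged from -28.6 to 38.0 with a median of 22.3 (mean 15.8 ± 25.1 SD, n = 6). In the combined group it ranged from -7.96 to 39.4 with a median of 26.2 (mean 20.0 ± 19.8 SD, n = 6). The 12 fish fed soyasaponin averaged 17.9 ± 21.7 and the 12 without it -17.9 ± 26.2. Soyasaponin replicate 2, at -28.6, was the lowest of the 12 fish given soyasaponin, and combined replicate 1, at -7.96, was the next. Control replicates 1 and 3, at 18.8 and 16.3, and prebiotic replicate 4, at 14.0, lay among the soyasaponin fish. Control replicates 2 and 5, at -20.3 and -0.833, and prebiotic replicates 2 and 3, at -0.676 and -25.5, also lay within their range. No test was made of the score, because it chose the members.

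**Figure D1:**
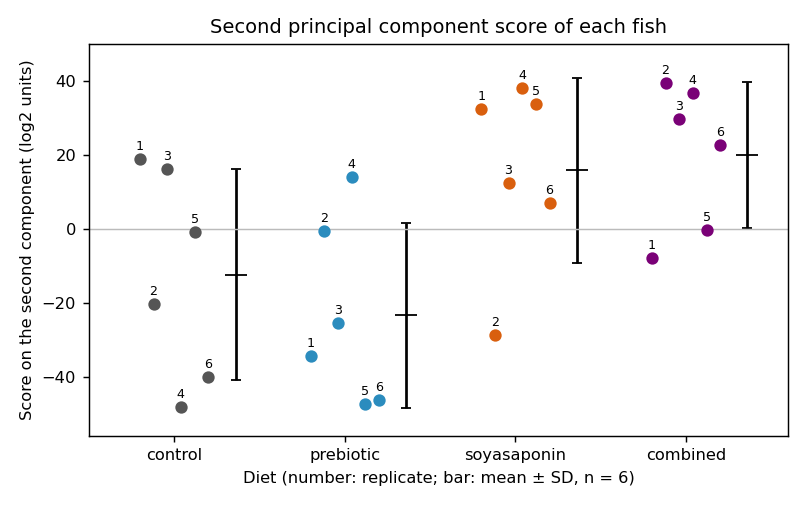
Score on the second principal component (log2 units, vertical axis) of each of the 24 fish by diet, with numbers for replicates and bars for mean ± SD (n = 6). The soyasaponin and combined means, 15.8 and 20.0, lie above the control and prebiotic means, -12.4 and -23.4, and the fish of all 4 diets overlap.

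At the high end the correlation with the score ran from 0.682 to 0.846 (median 0.705), and at the low end from -0.8996 to -0.684. The selection had no natural edge. The last transcript inside the high end, LABE_00091484-RA, had r = 0.6818 and the first outside, LABE_00023237-RA, had r = 0.6811. At the low end LABE_00035869-RA was the last inside, with r = -0.6845, and LABE_00053807-RA the first outside, with r = -0.6838.

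The low end was divided by how widely its transcripts varied between fish. A group of 39 transcripts varied between fish by a log2 range of at least 5, that is at least 32-fold, and the other 61 varied less. This division was made after the values had been seen. The median log2 range was 11.4 (5.06 to 14.2) in the wide-range set, 1.59 (0.54 to 4.69) in the narrow-range set and 1.43 (0.39 to 6.80) at the high end. It was 1.54 over all 17056 transcripts, of which 1116 (6.54%) had a range of at least 5. The high end and the narrow-range set therefore varied about as much between fish as the typical transcript did.

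The 39 wide-range transcripts carried 44.3% of the squared weights of the component, whereas the 100 of the high end carried 1.39% and the 61 of the narrow-range set 1.17%. Mean levels were moderate in all sets. The median of the mean normalized count was 373 (15.9 to 4624) at the high end, 503 (12.8 to 14863) in the wide-range set and 267 (11.3 to 37895) in the narrow-range set, against 138 over all transcripts. At the high end 4 of 100 members had a mean under 50.

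The wide-range transcripts varied as a block from fish to fish. The median correlation between pairs of them was 0.957 (0.736 to 0.998), compared with 0.691 (0.234 to 0.952) within the high end and 0.605 (0.228 to 0.9001) within the narrow-range set. These are descriptions over 24 libraries that share normalization, and the common correlation with the score obliges members to correlate. All 39 had their highest value in the same fish, prebiotic replicate 5. Of the 39, 37 correlated above 0.9 with the mean of the set, and outside the 200 members no transcript did. The wide-range members correlated with that mean at 0.801 to 0.999. The narrow-range members correlated with it at 0.365 to 0.859 (median 0.545), so the sets ran into each other. That mean is made of the 39 and correlated with the score at r = -0.876. The rule therefore left little room for such transcripts outside the members. The membership of the block depended on prebiotic replicate 5. With that fish left out of the component, 8 of the 39 were chosen again and 95 of all 200 members. With prebiotic replicates 4 and 5 left out, these counts were 6 and 98.

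Averaged over the 39 transcripts, the log2 level in control replicates 1 to 6 was 2.13, 7.90, 1.76, 10.1, 4.59 and 10.7. In prebiotic replicates 1 to 6 it was 9.79, 2.49, 9.52, 2.60, 11.98 and 10.2. High and low fish therefore stood side by side within both diets. In soyasaponin replicates 1 to 6 it was 4.71, 6.99, 3.41, 2.00, 4.17 and 7.99. In combined replicates 1 to 6 it was 8.91, 2.71, 2.27, 2.37, 8.53 and 2.29.

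The widest empty interval in these levels lay between 4.71 and 6.99, with 13 fish below it and 11 above. The fish above were 3 control, 4 prebiotic, 2 soyasaponin and 2 combined fish, so every diet had fish on both sides. The 39 transcripts together held 19812 to 464165 reads in each fish above the interval and 511 to 4160 in each fish below it. As a share of all normalized counts they ranged from 0.00555% to 5.10%, a 919-fold range. Of the spread of the set mean, 14.0% lay between diets, against 64.0% for the high end and 52.5% for the narrow-range set. The share to be met without any diet difference was not computed, so 14.0% is not by itself a diet effect.

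**Figure D2:**
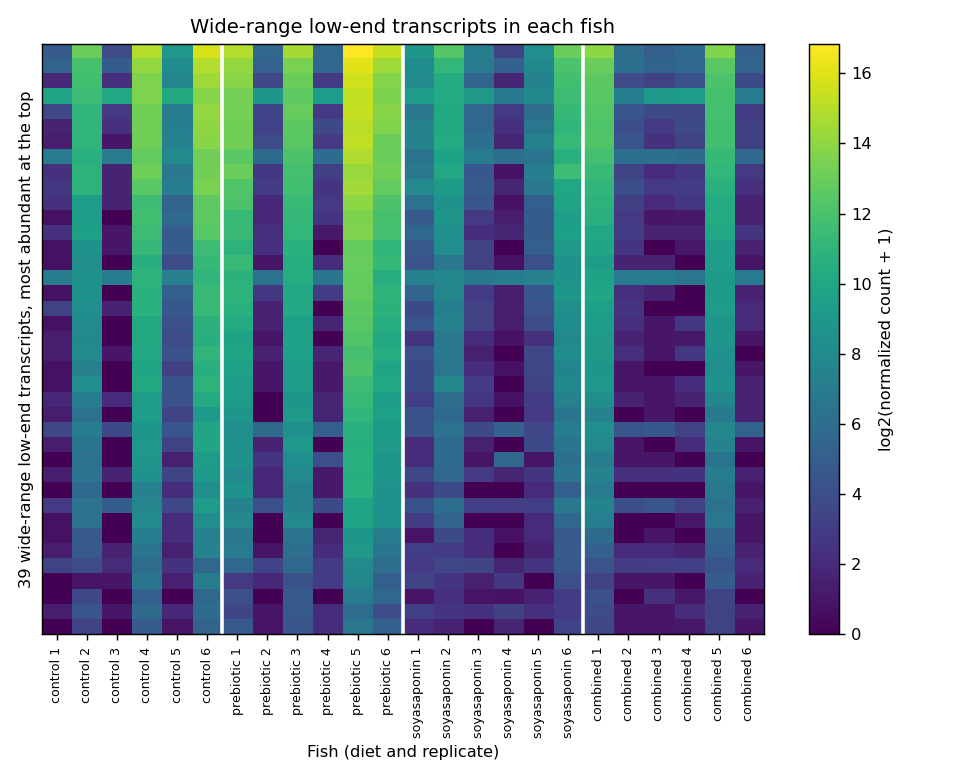
Level of each of the 39 wide-range low-end transcripts (rows, most abundant at the top; colour, log2(normalized count + 1)) in each of the 24 fish (columns, grouped by diet, replicates 1 to 6). Fish are high or low over nearly the whole block at once, every diet holds both kinds, and prebiotic replicate 5 is the highest.

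LABE_00022927-RA had the strongest correlation with the score of all members (r = -0.8996). Its lowest, median and highest normalized counts were 120, 936 and 9145 in control fish and 55.4, 5190 and 29479 in prebiotic fish. They were 67.2, 114 and 1620 in soyasaponin fish and 49.5, 70.7 and 3546 in combined fish. The 4 diets overlapped over most of their range. Over both soyasaponin diets against both others, the soyasaponin main effect, the log2 fold change was -2.42 (SE 1.13; limma adjusted p = 0.217).

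LABE_00056488-RA (r = -0.889) had counts of 895, 2066 and 14382 in control fish, 463, 8439 and 40154 in prebiotic fish, 109, 584 and 2927 in soyasaponin fish and 118, 579 and 5528 in combined fish, as lowest, median and highest. Its soyasaponin main effect was the one nearest to the threshold among the 39, with a log2 fold change of -2.51 (SE 0.81; limma adjusted p = 0.0665). The diets overlapped here too.

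LABE_00047846-RA was the most abundant of the set and the second most abundant of the low end. Its lowest, median and highest counts were 14.2, 4468 and 57457 in control fish and 50.7, 27624 and 117176 in prebiotic fish. They were 8.81, 390 and 8261 in soyasaponin fish and 32.9, 58.0 and 16456 in combined fish. As a ratio of highest to lowest, the fish within every diet differed by more than the medians of the diets did, though only slightly more in combined fish. The soyasaponin main effect was -2.66 (SE 1.74; limma adjusted p = 0.408). LABE_00047848-RA had the widest range of all members, 14.2 log2 units, from 1 read in control replicate 3 to 30388 reads in prebiotic replicate 5. LABE_00061240-RA followed with 13.9 log2 units, from 3 to 40223 reads, with the lowest value in soyasaponin replicate 4. In both, the lowest and the highest value came from fish of different diets. The prebiotic fish alone ran from 5.93 to 37866 normalized counts of the former and from 7.12 to 50122 of the latter.

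At the bottom of their range many of these transcripts were near the limit of detection. Of the 39, 21 had no read in at least 1 library, with up to 7 such libraries for 1 transcript, and control replicate 3 had no read for 15 of the 39. A count of 0 allows up to 3 reads in that library, counting error only. None of the other 161 members had a library without reads.

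The high end was at a higher level in most fish given soyasaponin. Its 100 transcripts averaged 8.21 ± 0.23 log2 units in control fish (7.87 to 8.41), 8.13 ± 0.09 in prebiotic fish (7.99 to 8.23), 8.64 ± 0.34 in soyasaponin fish (8.09 to 8.94) and 8.80 ± 0.21 in combined fish (8.58 to 9.17), as mean ± SD with n = 6. All 6 combined fish lay above all 12 fish without soyasaponin. Of the soyasaponin fish, replicates 2 and 3, at 8.09 and 8.38, lay within the range of the control fish. The set held 0.569%, 0.455%, 0.737% and 0.789% of all normalized counts on average in the control, prebiotic, soyasaponin and combined groups. Of the 100 members, 99 had their highest value in a fish given soyasaponin, 53 of them in combined replicate 2. The lowest value was in control replicate 4 for 25 members and in prebiotic replicates 5 or 6 for 14 each. Combined replicate 2 also had the highest score of all fish and control replicate 4 the lowest. Choosing members by the score therefore largely set where these values lay, and the share over all transcripts was not computed.

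The narrow-range set of the low end was at a lower level in most fish given soyasaponin. It averaged 8.03 ± 0.23 log2 units in control fish, 8.23 ± 0.29 in prebiotic fish, 7.63 ± 0.35 in soyasaponin fish and 7.60 ± 0.23 in combined fish (n = 6). The lowest and highest soyasaponin fish were at 7.33 and 8.27, and in that diet replicate 2 was again the exception, higher than 5 of the 6 control fish. Combined replicates 1 and 5, at 7.87 and 7.89, also lay within the range of the control fish (7.77 to 8.39). Of its 61 members, 56 had their lowest value in a fish given soyasaponin, 19 of them in combined replicate 2, and 32 had their highest value in prebiotic replicate 6. Here too the choice by the score largely set where these values lay, and the share over all transcripts was not computed.

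**Figure D3:**
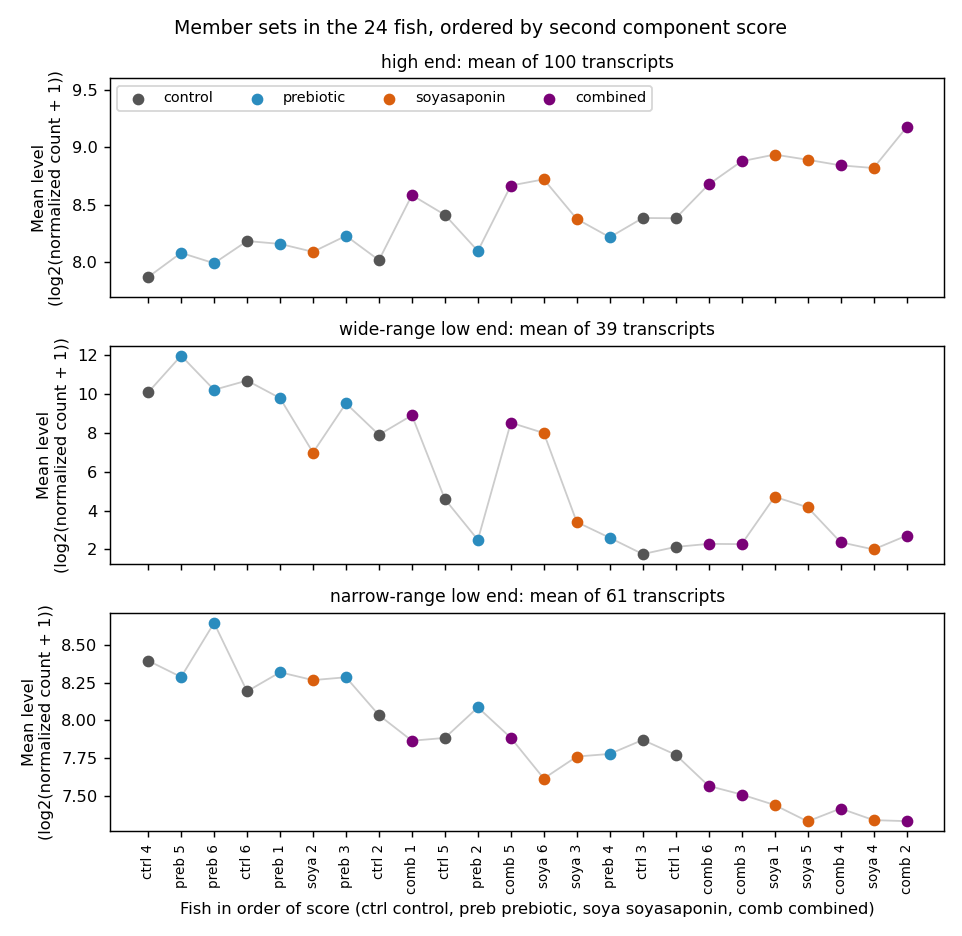
Mean log2(normalized count + 1) of the high end (100 transcripts, top), the wide-range low end (39, middle) and the narrow-range low end (61, bottom) in the 24 fish, ordered from the lowest to the highest score on the second component and coloured by diet. The high end climbs from 7.87 to 9.17 and the narrow-range set descends along the order, while the wide-range set falls from levels around 10.1 to levels around 2.71, with neighbouring fish at times several log2 units apart.

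Because the score itself differed between diets, the members were bound to follow the diets to that extent, and the counts below are not particular to them. Each test was a limma fit over all 17056 transcripts, with p-values adjusted over all of them by the Benjamini-Hochberg method and a threshold of 0.05. Log2 fold changes are differences of log2(normalized count + 1), which understates the change of low transcripts. For any difference among the 4 diets, 65 of the 200 members passed, where 5.01% of all transcripts tested did. They were 52 of the high end, 13 of the narrow-range set and none of the wide-range set (2 of 39, or 5.13%, at an unadjusted p under 0.05, against 25.6% of all transcripts). Without soyasaponin replicate 2 the count was 109, and 8.30% of all transcripts passed. On recovered reads edgeR called 83 members (6.85% of all transcripts) and DESeq2 115 (16.2%).

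For the soyasaponin main effect, 103 of the 200 members passed, against 5.96% of all transcripts tested. In edgeR 105 members passed (6.36% of all transcripts) and in DESeq2 133 (9.40%). At the high end 76 of 100 rose and none fell, where 4.06% of all transcripts rose. In the narrow-range set 27 of 61 fell and none rose, where 1.90% of all transcripts fell. The median log2 fold change was 0.49 (0.08 to 2.16) at the high end and -0.42 (-1.34 to -0.16) in the narrow-range set, against -0.02 over all transcripts. The narrow-range count was the more dependent on single fish. It was 13 without soyasaponin replicate 5 or combined replicate 2 and 14 without control replicate 4. When soyasaponin replicate 1, 4 or 2 was left out, it was 16, 17 and 42, respectively. The share of all transcripts called also moved with the fish left out, from 3.79% without combined replicate 2 to 9.02% without soyasaponin replicate 2. With the same members kept, the high-end count stayed between 61 and 91 when any 1 fish was left out. When the component was itself computed without that fish, 50 to 92 of the 100 were chosen again.

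In the wide-range set none of 39 passed in limma, although the median log2 fold change, -2.51 (-2.84 to -1.01), was the largest in size of the 3 sets. At an unadjusted p under 0.05 there were 8 of 39 (20.5%), near the 21.4% of all transcripts. On reads recovered from the normalized counts, edgeR called 3 of the 39 lower (1.88% of all transcripts) and DESeq2 12 (3.82%). Limma called 1 of them without prebiotic replicate 2, prebiotic replicate 4 or combined replicate 1. A miss of the threshold does not show that these transcripts did not differ.

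**Figure D4:**
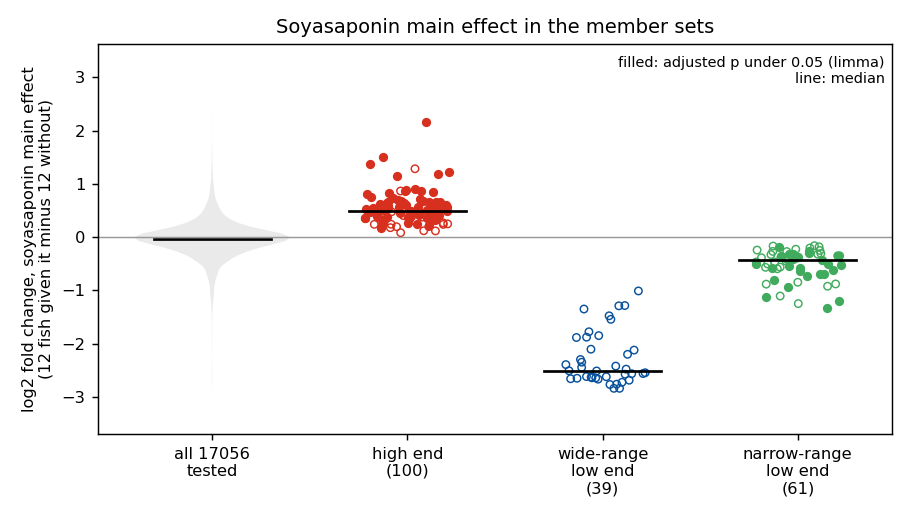
Log2 fold change of the soyasaponin main effect (12 fish given soyasaponin minus 12 without; vertical axis) for all 17056 transcripts tested and for the members of each set, filled where limma's adjusted p was under 0.05, with lines at the medians. The high end lies above 0 (median 0.49), the narrow-range set below (median -0.42), and the wide-range set lowest (median -2.51) with no filled point.

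At the high end LABE_00002782-RA had the largest correlation with the score (r = 0.846). Its lowest, median and highest counts were 210, 235 and 299 in control fish, 181, 231 and 287 in prebiotic fish, 234, 301 and 326 in soyasaponin fish and 243, 292 and 345 in combined fish. The diets overlapped, and the soyasaponin main effect was 0.27 (SE 0.08; limma adjusted p = 0.0442). This call was kept only when the fish left out was control replicate 1, prebiotic replicate 2 or 4, soyasaponin replicate 2 or 3, or combined replicate 4 or 5, and the adjusted p reached 0.0854 among the other omissions. It was also lost with no filter (0.0527) and with the log2 size factor as a covariate (0.0667).

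LABE_00029372-RA (r = 0.830) had counts of 372, 480 and 593 in control fish, 292, 389 and 543 in prebiotic fish, 547, 672 and 823 in soyasaponin fish and 541, 669 and 739 in combined fish. Fish given soyasaponin thus began where the highest fish without it ended, with a small overlap. The soyasaponin main effect was 0.61 (SE 0.10; limma adjusted p = 0.00220) and stayed below the threshold when any 1 fish was left out.

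LABE_00004890-RA was the most abundant member of the high end. Its lowest, median and highest counts were 2824, 4241 and 5045 in control fish, 2709, 3421 and 4293 in prebiotic fish, 4022, 5625 and 6198 in soyasaponin fish and 4701, 5066 and 7578 in combined fish. The combined fish all lay above the prebiotic fish and overlapped the control fish. Its soyasaponin main effect was 0.56 (SE 0.11; limma adjusted p = 0.00572).

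LABE_00029976-RA, the next in abundance, had counts of 586, 1932 and 2554 in control fish, 1520, 1906 and 3182 in prebiotic fish, 1298, 5164 and 8199 in soyasaponin fish and 2553, 5151 and 10062 in combined fish. The medians of both soyasaponin groups lay above every fish without it, and the ranges overlapped at their ends. The log2 fold change of the soyasaponin main effect was 1.37 (SE 0.29; limma adjusted p = 0.00847). Combined fish against control fish gave 1.65 (SE 0.42; limma adjusted p = 0.0353), a call lost without control replicate 2 or 4 or combined replicate 2, 3 or 4, with an adjusted p of up to 0.0939. That call was also lost with quantile normalization (0.0501) and with the log2 size factor as a covariate (0.0619).

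The members of the high end that rose most were also those with the widest range. LABE_00064073-RA had counts of 4.13, 30.7 and 37.4 in control fish, 11.3, 27.7 and 61.7 in prebiotic fish, 18.0, 58.1 and 203 in soyasaponin fish and 78.1, 170 and 572 in combined fish. All 6 combined fish lay above every fish without soyasaponin, while the soyasaponin fish overlapped both other groups. As a soyasaponin main effect the log2 fold change was 2.16 (SE 0.42; limma adjusted p = 0.00503). Combined against control gave 3.11 (SE 0.59; limma adjusted p = 0.0159), or an adjusted p of 0.0516 without combined replicate 2.

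LABE_00002848-RA had counts of 27.2, 50.7 and 162 in control fish, 53.4, 90.2 and 121 in prebiotic fish, 38.0, 162 and 411 in soyasaponin fish and 86.9, 262 and 1380 in combined fish. The highest combined fish, replicate 2, stood far above the rest, and all diets overlapped. The soyasaponin main effect was 1.51 (SE 0.41; limma adjusted p = 0.0303), with an adjusted p of up to 0.0578 and the call lost without control replicate 2 or 4 or soyasaponin replicate 1, 5 or 6. Combined against control gave 2.24 (SE 0.58; limma adjusted p = 0.0378), and this call was lost without any of control replicates 2 to 6 or combined replicates 2 to 5.

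In the narrow-range set LABE_00040711-RA was the most abundant of all 200 members. Its counts were 33922, 38324 and 51820 in control fish, 40074, 51758 and 63401 in prebiotic fish, 22999, 26032 and 38375 in soyasaponin fish and 20536, 30821 and 39847 in combined fish. Every prebiotic fish lay above every fish of both soyasaponin diets, and the control fish overlapped all other groups. The soyasaponin main effect was -0.70 (SE 0.12; limma adjusted p = 0.00264) and stayed below the threshold when any 1 fish was left out.

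The narrow-range members that fell most with soyasaponin were LABE_00039423-RA and LABE_00030100-RA. LABE_00039423-RA had counts of 367, 540 and 1178 in control fish, 526, 713 and 1251 in prebiotic fish, 86.6, 258 and 2048 in soyasaponin fish and 123, 256 and 531 in combined fish. Its highest value of all, 2048, was in soyasaponin replicate 2, so the diets overlapped. The main effect was -1.34 (SE 0.36; limma adjusted p = 0.0319). In edgeR the adjusted p was 0.171 and in DESeq2 0.0960, and the limma call was lost without control replicate 4, prebiotic replicate 3 or 6, soyasaponin replicate 4, 5 or 6 or combined replicate 2 (adjusted p of up to 0.0623), or with the log2 size factor as a covariate (0.0518).

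LABE_00030100-RA was among the scarcest members, with 1 to 25 reads per library. Its counts were 9.10, 17.9 and 23.8 in control fish, 6.11, 12.7 and 24.3 in prebiotic fish, 0.801, 4.83 and 20.0 in soyasaponin fish and 2.26, 6.65 and 15.2 in combined fish. The diets overlapped, and the main effect was -1.19 (SE 0.35; limma adjusted p = 0.0419). The call was lost in edgeR (adjusted p = 0.0791) and whenever a fish other than control replicate 3 or 5, prebiotic replicate 3 or 4, soyasaponin replicate 2 or 3 or combined replicate 5 was left out (limma adjusted p of up to 0.0753). With the log2 size factor as a covariate it was lost too (0.0665).

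For the prebiotic main effect no member passed in limma, edgeR or DESeq2, and 0% of all transcripts did in limma and edgeR and 0.768% in DESeq2. At an unadjusted p under 0.05 there were 7 of 200 members (3.5%), against 14.8% of all transcripts, with a smallest limma adjusted p of 0.209. For the interaction, the difference of the soyasaponin effect with and without the prebiotic, no member passed in any of the 3 tools either, and 0% of all transcripts did in limma and edgeR and 0.551% in DESeq2. Here 18 members (9%) had an unadjusted p under 0.05, against 12.7% of all transcripts, and the smallest limma adjusted p was 0.188.

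The 3 comparisons with the control diet below share the same 6 control fish. Soyasaponin alone against control called 3 members, all higher and all at the high end, where 0.985% of all transcripts passed and 0.276% passed as higher. In edgeR 1 member passed (1.13% of all transcripts) and in DESeq2 24 (3.57%). Without prebiotic replicates 4 and 5 limma called 5 (1.62% of all transcripts). The count was 34 without soyasaponin replicate 2 and 8 without control replicate 5 or combined replicate 2. It was 0 without control replicate 2, 3, 4 or 6, soyasaponin replicate 1, 4, 5 or 6 or combined replicate 3, and 1 without prebiotic replicate 1 or combined replicate 4, 5 or 6. Over all transcripts the count ran from 0 without control replicate 3 to 621 without soyasaponin replicate 2, against 168 with all fish.

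Of the 3 called members, those with the largest rise in this comparison were LABE_00050247-RA and LABE_00052508-RA. LABE_00050247-RA had counts of 526, 613 and 779 in control fish, 633, 721 and 786 in prebiotic fish, 647, 1021 and 1292 in soyasaponin fish and 963, 1003 and 1577 in combined fish. All combined fish lay above all fish without soyasaponin, and the soyasaponin fish overlapped them. Soyasaponin against control gave 0.63 (SE 0.14; limma adjusted p = 0.0409). The call was lost without control replicate 1, 2, 3, 4 or 6, soyasaponin replicate 1, 4, 5 or 6 or combined replicate 3 (adjusted p of up to 0.0962), or with quantile normalization (0.0676). Combined against control gave 0.82 (SE 0.14; limma adjusted p = 0.00997), a call kept without any 1 fish.

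LABE_00052508-RA had counts of 492, 590 and 701 in control fish, 466, 558 and 733 in prebiotic fish, 734, 863 and 1135 in soyasaponin fish and 785, 832 and 1347 in combined fish. The 12 fish given soyasaponin did not overlap the 12 without it, though 733 and 734 nearly touched. The soyasaponin main effect was 0.63 (SE 0.10; limma adjusted p = 0.00220), past the threshold without any 1 fish. Soyasaponin alone against control gave 0.59 (SE 0.14; limma adjusted p = 0.0449). That call was kept only when the fish left out was control replicate 5, prebiotic replicate 2 to 6, soyasaponin replicate 2 or 3 or combined replicate 1 or 2 (adjusted p of up to 0.113 otherwise). It was also lost with no filter (0.0507), with quantile normalization (0.0849) and in edgeR (0.0638).

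The combined diet against control called 37 members, 33 higher at the high end and 4 lower in the narrow-range set, where 3.24% of all transcripts passed, 1.87% higher and 1.37% lower. In edgeR 33 members passed (2.87% of all transcripts) and in DESeq2 67 (7.31%). The count rested on several fish. It was 3 without combined replicate 2, 17 without control replicate 2 or 4, 20 without combined replicate 4, 21 without combined replicate 3 and 24 without control replicate 3. The count over all transcripts fell with them, from 553 to 19 without combined replicate 2 and to between 199 and 322 without each of the other 5 fish. Of the 4 that fell, those that fell most were LABE_00024564-RA and LABE_00038873-RA.

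LABE_00024564-RA had counts of 288, 379 and 510 in control fish, 187, 400 and 590 in prebiotic fish, 79.1, 204 and 302 in soyasaponin fish and 80.1, 164 and 327 in combined fish. Combined and control fish overlapped between 288 and 327. Combined against control gave -1.25 (SE 0.34; limma adjusted p = 0.0479), a call kept only when the fish left out was prebiotic replicate 4, 5 or 6, soyasaponin replicate 1, 2 or 5 or combined replicate 1 or 5 (adjusted p of up to 0.127 otherwise). It was also lost with no filter (0.0550), with quantile normalization (0.0604), in edgeR (0.0674) and with the log2 size factor as a covariate (0.122). Its soyasaponin main effect was -1.11 (SE 0.24; limma adjusted p = 0.00899) and was kept without any 1 fish.

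LABE_00038873-RA had counts of 54.4, 73.7 and 83.9 in control fish, 35.6, 52.0 and 73.3 in prebiotic fish, 36.1, 45.9 and 76.0 in soyasaponin fish and 26.5, 38.8 and 48.4 in combined fish. The combined and control fish did not overlap. The log2 fold change between them was -0.90 (SE 0.20; limma adjusted p = 0.0231), and the call was lost without control replicate 3 or combined replicate 2 or 4 (adjusted p of up to 0.0711).

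Prebiotic alone against control called 3 members (1.5%), all higher and all in the narrow-range set. Of all transcripts 1.82% passed and 0.920% passed as higher. The share of members called lay between these values and rests on 3 transcripts. At an unadjusted limma p under 0.05 there were 20 of 200 members (10%), against 21.6% of all transcripts. In edgeR 2 members passed (1.77% of all transcripts) and in DESeq2 6 (9.26%). The limma count was 0 without prebiotic replicates 4 and 5 (0.0645% of all transcripts). It was also 0 without control replicate 1, 2, 3 or 5 or prebiotic replicate 2, 4 or 5, 1 without prebiotic replicate 1 or 3, soyasaponin replicate 5 or 6 or combined replicate 1, 3 or 4, and 7 without control replicate 4. Over all transcripts it ran from 0 without prebiotic replicate 5 to 1006 without prebiotic replicate 6, against 310 with all fish.

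LABE_00014940-RA had counts of 355, 523 and 892 in control fish, 701, 1075 and 1340 in prebiotic fish, 306, 440 and 858 in soyasaponin fish and 326, 531 and 581 in combined fish. The prebiotic fish overlapped the control and soyasaponin fish and lay above all combined fish. Prebiotic against control gave 0.94 (SE 0.24; limma adjusted p = 0.0483). The call was kept only when the fish left out was control replicate 4, prebiotic replicate 3 or 6, soyasaponin replicate 2, 3 or 4 or combined replicate 2 (adjusted p of up to 0.107 otherwise). It was also lost with no filter (0.0571), quantile normalization (0.0702), edgeR (0.0642), array quality weights (0.0514), the first component (0.0938) or the log2 size factor (0.441) as covariate, and without prebiotic replicates 4 and 5 (0.127). LABE_00059723-RA had counts of 472, 738 and 990 in control fish, 833, 1535 and 1655 in prebiotic fish, 586, 785 and 1056 in soyasaponin fish and 448, 735 and 922 in combined fish. The prebiotic median lay above every fish of the other diets, and the ranges overlapped. Prebiotic against control gave 0.86 (SE 0.22; limma adjusted p = 0.0455), kept only without control replicate 4 or 6, prebiotic replicate 1 or 6, soyasaponin replicate 1, 2 or 4 or combined replicate 2, 5 or 6 (adjusted p of up to 0.106 otherwise). This call was lost with no filter (0.0521), quantile normalization (0.0676), array quality weights (0.0514), the first component (0.0732) or the log2 size factor (0.393) as covariate, and without prebiotic replicates 4 and 5 (0.117). The log2 size factor itself differed between these 2 diets, and with it as covariate 0% of all transcripts passed in this comparison.

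Within diets the ends kept their relation to the score to different degrees. These values are a description only, because the same score chose the members. The 39 wide-range transcripts carried 44.3% of its squared weights, so they were bound to follow it within diets as well. The share of all transcripts that kept their sign was not computed. With the diet means taken out, the median correlation with the score was 0.535 (0.386 to 0.749) at the high end, -0.884 (-0.916 to -0.707) in the wide-range set and -0.617 (-0.833 to -0.405) in the narrow-range set. At the high end the median over members was 0.609 within control fish, 0.177 within prebiotic fish, 0.783 within soyasaponin fish and 0.593 within combined fish, 6 fish each. In the wide-range set it was -0.978, -0.957, -0.667 and -0.928 in the same order. The sign was kept within all 4 diets by 61 of 100 members of the high end, 38 of 39 wide-range members and 53 of 61 narrow-range members. Between sets, the median correlation of a high-end with a narrow-range member was -0.607, or -0.414 with diet means taken out, and that of a high-end with a wide-range member was -0.447, or -0.321. For a wide-range with a narrow-range member it was 0.536, or 0.445 with diet means taken out.

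When the component was computed anew without the 39 wide-range transcripts, an alternative chosen after seeing the data, it took up 8.24% of the variance. The new score correlated with the first one at r = 0.658 over the 24 fish. Of its squares 54.2% lay between diets, against 39.7% with the 39 included. The 39 left out had correlations of -0.41 to -0.19 with the new score (median -0.261). The median correlation was 0.665 for the high end and -0.595 for the narrow-range set. A selection of 200 on this score shared 27 members with the first, 16 of the high end and 11 of the narrow-range set. In SD units of each score, soyasaponin minus control fish was 1.54 with the new score and 0.948 with the first, and combined minus control was 1.79 and 1.09. Prebiotic minus control was 0.592 with the new score and -0.367 with the first, so its sign differed between these scores. With transcripts scaled to unit variance, prebiotic minus control was -0.498. The 39 stayed in that component, although the selection on it kept 0 of them, so it was not a score without them. Whether the change of sign came from the 39 transcripts was not tested.

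**Figure D5:**
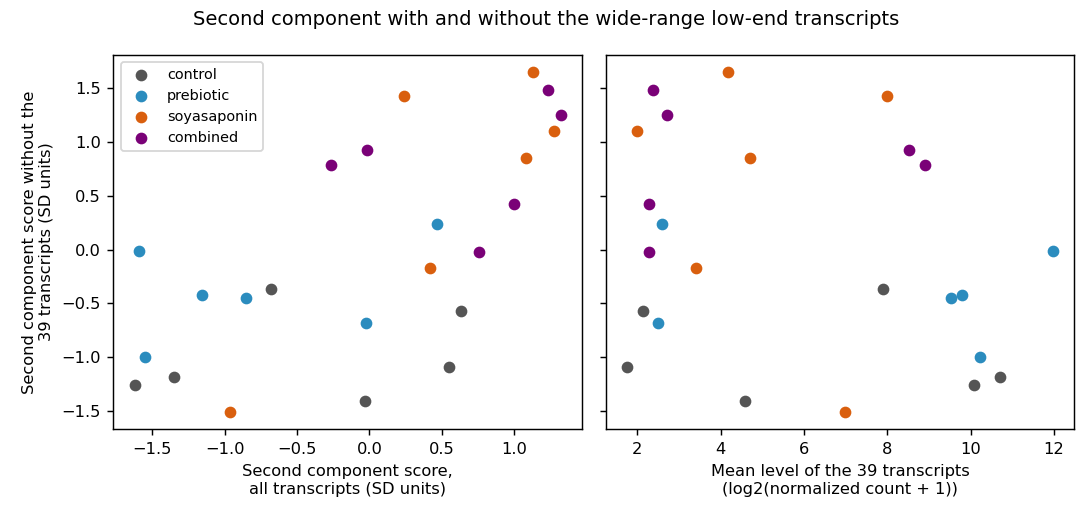
Score on the second component computed without the 39 wide-range low-end transcripts (vertical axes, SD units) against the score from all transcripts (left, SD units) and against the mean level of the 39 (right, log2(normalized count + 1)), 1 point per fish, coloured by diet. The scores correlate at r = 0.658, and the new score correlates with the mean level of the 39 at r = -0.269. The 6 fish with a mean level of 9.52 or more all have new scores below 0, and all 6 are fish without soyasaponin. Control replicates 1, 2, 3 and 5 and prebiotic replicate 2, at mean levels of 1.76 to 7.90, also have new scores below 0 (-1.41 to -0.365). Of the fish without soyasaponin only prebiotic replicate 4 has a new score above 0 (0.238). Among the fish given soyasaponin, soyasaponin replicates 2 and 3 and combined replicate 6 have new scores below 0 (-1.51, -0.172 and -0.0219). The new score of soyasaponin replicate 2 is the lowest of all fish. Combined replicates 1 and 5, at 8.91 and 8.53, have new scores of 0.791 and 0.925.

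The score was also set beside 4 measures of the libraries. These correlations are over 24 libraries that gave both the score and the measures, and are descriptions with no test. The share of normalized counts held by the most abundant transcript, which is not a member, correlated with the score at Pearson r = -0.644 and Spearman rho = -0.583. Without prebiotic replicates 1 and 2, the libraries farthest from the median share, r was -0.667. Within diets r was -0.619 among control fish, -0.399 among prebiotic fish, -0.829 among soyasaponin fish and -0.0516 among combined fish, so the relation was not seen within the combined group. Control fish gave it 3.35 ± 1.48% of their counts (SD, n = 6 for each diet), prebiotic fish 5.44 ± 1.03%, soyasaponin fish 3.05 ± 0.861% and combined fish 3.26 ± 0.475%. The log2 size factor, the authors' depth scaling, correlated at r = 0.428, and at 0.352 without control replicate 1 and soyasaponin replicate 4. The number of assigned reads gave r = 0.301 and the number of transcripts above 0 gave r = 0.207. With the log2 size factor as a covariate, 87 members and 4.54% of all transcripts passed for the soyasaponin main effect in limma, against 103 and 5.96% without it. The part of library composition in the diet differences of the members was not tested beyond this.

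Identifiers of the members carried little that the rule had not used. Whether identifier numbers follow position in the genome is not stated in the sources used here. At the low end 6 pairs of neighbouring identifiers had numbers at most 5 apart, and these pairs correlated at 0.640 to 0.994. LABE_00047846-RA and LABE_00047848-RA were such a pair (r = 0.992), as were LABE_00061240-RA and LABE_00061244-RA (r = 0.994). If such neighbours were copies of 1 gene, reads could have been split between them by the counting, so their separate levels are uncertain. At the high end there was no such pair.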

How the data were processed

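Hindgut mRNA of 24 ballan wrasse was sequenced, 6 fish on each of 4 diets. The authors deposited 1 table of normalized counts for 20751 transcripts, that is counts divided by a size factor for each library, used here as a signal. The submitters' processing notes name cutadapt, TopHat2, featureCounts, Subread and DESeq2, with no role given. The genome build is not given in the sources used here. Every value was a whole multiple of 1 step per library within 1e-06 (100% of 498024 values), so whole reads were recovered from the deposited signal.

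Values were put on the log2(value + 1) scale, and transcripts with a mean of at least 10 over the 24 libraries (17056) were kept. Principal components and correlations were computed with numpy 2.4.6. limma 3.58.1 with an intensity trend was run in R 4.3.3 in 1 fit over all 24 libraries. P-values were two-sided and adjusted by Benjamini-Hochberg over all 17056 transcripts, with a threshold of 0.05. edgeR 4.0.16 (quasi-likelihood) and DESeq2 1.42.0 on the recovered reads were alternatives. Other alternatives changed the pseudocount, filter, normalization, moderation, weights or covariates, left out each fish, or recomputed the component. Correlations of the score with library measures are given without a test. The steps were tested on simulated data.

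The 200 members, the lists and the tests were chosen with earlier results of these data known. For each end, the text names the 2 members with the largest correlation, the 2 most abundant, the 2 with the widest range and the last inside and first outside, and for each test up to 2 that rose and 2 that fell most among those called. LABE_00061244-RA is named besides, as the neighbour of a named member. None of the 20751 identifiers matched the reference table of gene names, so no name, sequence or marker list was used. No libraries of the same diet were duplicates, with a chi-square per degree of freedom of 19.7 to 94.6 over 60 pairs.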

Additional observations from a re-analysis of the deposited data

Results flagged for a closer look

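In each diet the highest and the lowest fish were compared with their nearest neighbour for 24 measures: the score, the 3 set means and the 20 named members. Of the 96 groups of 6 examined, 2 held a fish whose gap to the next, divided by the whole range, exceeded Dixon's critical value of 0.625. Chance flags about 1 in 20 groups. Both were combined replicate 2 in the combined diet. It was the highest for LABE_00050247-RA, at a log2 level of 10.6, with a gap of 0.667 of the range. It was also the highest for LABE_00052508-RA, at a log2 level of 10.4, with a gap of 0.630 of the range. The same fish had the highest score of all 24, 39.4.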

How the results depend on the processing

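The member counts for the soyasaponin main effect (103) stayed within 1.5 times of that value under every alternative, from 87 with the log2 size factor as covariate to 133 in DESeq2, and from 74 to 133 when 1 fish was left out. In this and the following counts the members stayed those chosen with all 24 fish, so the counts do not cover a new selection. For any diet difference (65) DESeq2 gave 115, and leaving out 1 fish gave 46 to 109. For the combined diet against control (37) DESeq2 gave 67 and array quality weights 71, and leaving out 1 fish gave 3 to 52. For soyasaponin against control (3) the count was 1 with no filter, 0 with quantile normalization, 1 in edgeR, 24 in DESeq2, 41 with array quality weights and 5 without prebiotic replicates 4 and 5, and 0 to 34 when 1 fish was left out. For prebiotic against control (3) it was 1 with no filter, 0 with quantile normalization, 6 in DESeq2, 1 with array quality weights, 0 with the first component or the log2 size factor as covariate and 0 without prebiotic replicates 4 and 5, and 0 to 7 when 1 fish was left out. The prebiotic main effect and the interaction called 0 members under each alternative. The cause of these changes was not tested.

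Of the 200 members, 62 were chosen again with transcripts scaled to unit variance (none of the 39 wide-range ones), 98 without prebiotic replicates 4 and 5, 74 with diet means removed and 27 without the 39. When 1 fish was left out, 95 to 186 were kept, and the lowest count, 95, came without prebiotic replicate 5. Prebiotic minus control on the score was 0.592 SD units without the 39, against -0.367, and -0.779 to -0.0404 when 1 fish was left out. For the called effects of the named members, 712 alternatives kept the call, 186 lost it and none changed its sign. No paired analysis was possible because replicate numbers were given in record order and the columns carry no pairing.

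Limits: with 6 fish a diet and 2 tanks behind them, diet and tank cannot be told apart. Counting error limits the wide-range set at its low values, where libraries held 0 reads of a transcript. Small comparisons with the control group rest on few fish, and the identity of every transcript is unknown here.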
